A study of Rattus norvegicus with 4 samples.

Results

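The miR-22 hairpin gives 2 mature miRNAs, rno-miR-22-3p from its 3′ side and rno-miR-22-5p from its 5′ side, and both were read here in extracellular vesicles of rat macrophages. These 2 members, of 758 rat miRNAs on the array, were chosen by name on the basis of an earlier look at the same arrays, in which the M1 against M0 values of miR-22-3p were already known. That contrast is therefore described for miR-22-3p, with no p-value. Names are given below without the species prefix rno.

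Vesicles were collected from cultured bone-marrow-derived macrophages of male wild-type Sprague-Dawley rats, and the vesicle RNA was read on 4 single-colour Agilent arrays. M0_sham (n = 2 arrays) holds vesicles of M0 macrophages from rats whose knee surgery was an incision only. M1_OA (n = 2 arrays) holds vesicles of M1 macrophages from rats made osteoarthritic (OA) in the right knee by transecting the anterior cruciate ligament together with a destabilisation of the medial meniscus. All rats were operated at 8 weeks of age and gave marrow 8 weeks later. Cells of both groups were sorted on CD45 and CD11b and grown with 10% fetal bovine serum and 20 ng/mL M-CSF to day 7. The M1 cells then received 100 ng/mL LPS with 20 ng/mL interferon-γ for 48 hours, followed by 5 mM ATP for 60 minutes. Each array was labelled from 0.2 µg RNA. Surgery, polarisation and ATP changed together, so the arrays hold 1 contrast between conditions and cannot assign a difference to any of these 3 steps.

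A miRNA hairpin is cut by Dicer into a duplex, and usually 1 strand, the guide, is kept in an Argonaute protein while the passenger strand is degraded. The guide pairs with messenger RNAs mainly through its seed, bases 2 to 8. In human and mouse cells miR-22-3p is the usual guide and is known for lowering the histone deacetylase HDAC4. It is also known from monocyte differentiation and, in human cartilage, from osteoarthritis.

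The mature sequences and the hairpin are shown because they fix what each probe can bind. They are RefSeq's, on the plus strand of rat chromosome 10 in build GRCr8. The mature arms have the seed in capitals, and the hairpin has its 2 mature arms in capitals.
miR-22-5p, chr10:60805349-60805370: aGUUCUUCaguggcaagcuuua
miR-22-3p, chr10:60805387-60805408: aAGCUGCCaguugaagaacugu
Mir22 hairpin, chr10:60805331-60805425: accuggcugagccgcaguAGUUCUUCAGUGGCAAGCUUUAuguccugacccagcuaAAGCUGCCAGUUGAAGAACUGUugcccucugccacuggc

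The hairpin is 95 bases long, and each mature arm is 22 bases long. In the structure that RNAfold predicts for it, with a free energy of -43 kcal/mol, 19 of the 22 bases of miR-22-3p pair with miR-22-5p, and 16 bases of loop separate the arms. Of the 758 miRNAs on the array, 685 had a mature sequence in RefSeq. None of the others among these 685 shared the seed of either arm (0 for miR-22-3p and 0 for miR-22-5p), also when only bases 2 to 7 were compared.

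The probes are shown because the result for miR-22-3p rests on 1 of them. They are DNA, read 5′ to 3′ from the array's own probe column, with capitals on the bases that lie opposite the seed.
miR-22-3p, 18-base probe: acagttcttcaactGGCA
miR-22-3p, 19-base probe: acagttcttcaactGGCAG
miR-22-5p, 18-base probe: taaagcttgccactGAAG

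The shorter probe for miR-22-3p pairs with bases 5 to 22 of the miRNA and the longer with bases 4 to 22, so they differ by 1 base, a G at the end nearer the seed. They cover 4 and 5 of the seed's bases, and their GC contents are 44.4% and 47.4%. The probe for miR-22-5p also covers bases 5 to 22 and has a GC content of 44.4%. Every miRNA had 16 spots on each array. For miR-22-3p these were 8 spots of each probe, and for miR-22-5p all 16 carried the single probe. A single probe is unusual on this design, where 3 miRNAs have 1 probe, 594 have 2, 29 have 3 and 132 have 4.

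miR-22-3p was detected in the vesicles of M1 macrophages from OA rats and in neither sample of M0 macrophages from sham rats, and miR-22-5p was detected in no sample. Its summed intensity, the mean over the spots of each probe added over both probes, was 87.9 and 59.1 on M1_OA replicates 1 and 2. It was -4.05 and -8.86 on M0_sham replicates 1 and 2. The M1_OA mean was 73.5 ± 20.4 (SD, n = 2) and the M0_sham mean was -6.46 ± 3.40 (SD, n = 2), in arbitrary intensity units before any scaling between arrays. Both M0_sham values lay below 0, among the 637 and 680 of 758 miRNAs that did so on M0_sham replicates 1 and 2. The processed intensity has its background subtracted, so a value below 0 means a spot dimmer than the estimated background, not a negative amount.

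The lowest intensity of any miRNA called well above background was 7.78 on M0_sham replicate 1 and 26.7 on replicate 2. It was 16.9 on M1_OA replicate 1 and 14.6 on replicate 2. A miRNA was counted as detected, or well above background, where a probe of it had the scanner software's flag on more than 0.5 of its spots. The flag itself is lenient: it stood on 42, 2, 96 and 29 of the 434 negative control spots on M0_sham replicates 1 and 2 and then M1_OA replicates 1 and 2. The 95th percentile of those controls was 23.5 and 15.4 on the M1_OA arrays, above the lowest detected intensities there and below those of miR-22-3p. On M0_sham replicate 1 it was 8.19, also above the lowest detected intensity there, and on replicate 2 it was 9.38, below it. The M0_sham values of miR-22-3p give only an approximate upper limit, and that limit was higher on replicate 2 than on replicate 1. It is approximate because brighter miRNAs than the one at 7.78 were not detected on M0_sham replicate 1, such as miR-3593-3p at 14.1 and miR-483-5p at 12.3. In vesicle RNA, fewer vesicles carrying a miRNA and less of it per vesicle cannot be told apart.

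For miR-22-5p the intensity was -2.59 on M0_sham replicate 1, -4.74 on M0_sham replicate 2, -3.99 on M1_OA replicate 1 and -4.81 on M1_OA replicate 2. The group means were -3.67 ± 1.52 (SD, n = 2) in M0_sham and -4.40 ± 0.58 (SD, n = 2) in M1_OA. These ranges overlapped, and 0 of its 16 spots were flagged on any of the 4 arrays. No difference between groups was computed for this arm, since both groups were below the level that the arrays resolve. The medians of its raw spot brightness were 49.7 and 50.7 in M0_sham and 59.7 and 56.8 in M1_OA. The negative control spots, which match no rat miRNA, had raw medians of 57.3, 60.1, 74.0 and 68.5 on the same arrays, each above the miR-22-5p probe.

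**Figure D1:**
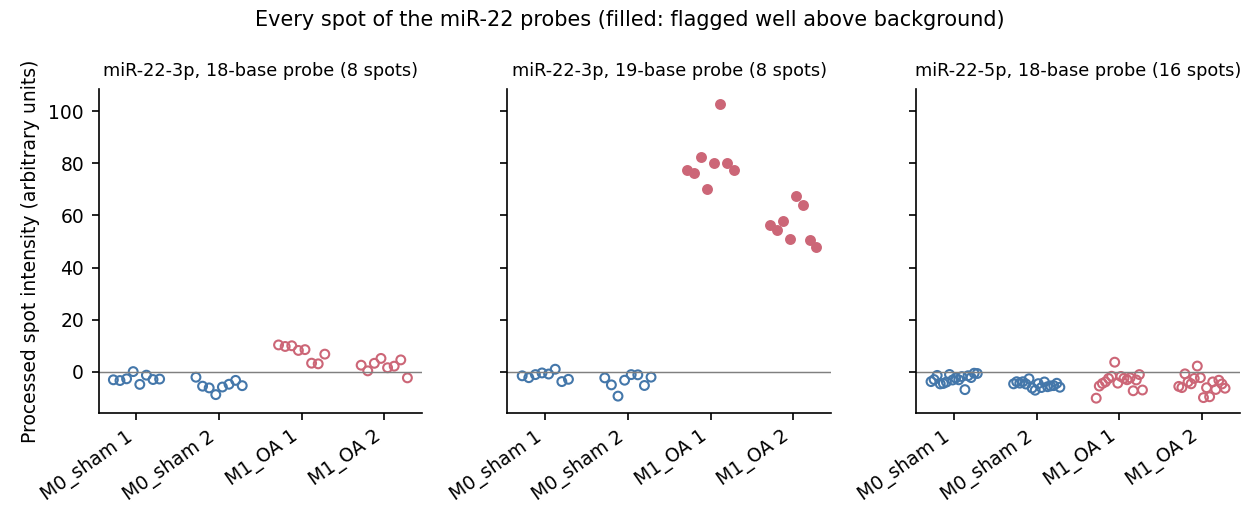
Processed intensity of every spot (arbitrary units, linear axis) on the 4 arrays for each miR-22 probe, with filled points flagged well above background and open points not. Filled points appear only for the 19-base probe of miR-22-3p on the M1_OA arrays, between 70.0 and 102.8 on replicate 1 and between 47.8 and 67.4 on replicate 2.

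The 2 probes for miR-22-3p did not report it alike. All 8 spots of the 19-base probe were flagged on each M1_OA array, with mean intensities of 79.0 and 56.1 over the spots not marked as outliers (6 and 8 spots). None of the 8 spots of the 18-base probe was flagged on either (0 of 8 on each), with means of 8.93 and 3.02. On M0_sham replicates 1 and 2 the 19-base probe read -1.46 and -3.66 and the 18-base probe -2.59 and -5.20, with no spot of either flagged. The 18-base probe was still brighter on both M1_OA arrays than on both M0_sham arrays. It stayed near the negative controls there, whose median processed intensity was 10.8 on M1_OA replicate 1 and 7.21 on replicate 2, against 4.35 and 4.69 in M0_sham. So the 19-base probe supplied nearly all of the summed intensity.

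Such a split between probes was common on these arrays. Among detected miRNAs with at least 2 probes, the probes gave different calls for 22 of 42 on M1_OA replicate 1 and for 22 of 45 on replicate 2. In 20 and 19 of these every flagged probe was longer than every probe not flagged, as for miR-22-3p. In M0_sham the probes gave different calls for 9 of 23 and 5 of 13.

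On M1_OA replicates 1 and 2, miR-22-3p took ranks 14 and 18 by intensity among all 758 miRNAs, within the 42 and 45 that were well above background. On M0_sham replicates 1 and 2 it took ranks 376 and 468, among the 637 and 680 miRNAs with an intensity below 0. miR-22-5p took ranks 252 and 194 in M0_sham and 296 and 256 in M1_OA, where 600 and 638 miRNAs were below 0. Ranks order brightness and not amounts, because probes differ in how well they bind, and ranks among intensities below 0 order noise.

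Among the 40 miRNAs well above background on both M1_OA arrays, miR-22-3p had place 15 by mean intensity. Just brighter were miR-32-3p with 86.2 ± 37.5, miR-188-5p with 92.5 ± 12.0 and miR-34a-5p with 107 ± 21.1 (SD, n = 2 each). Just dimmer were miR-24-3p with 70.6 ± 13.5, miR-155-5p with 66.4 ± 8.54 and miR-672-5p with 63.6 ± 27.8 (SD, n = 2 each). The 2 arrays of miR-22-3p, at 87.9 and 59.1, spanned the means of the 3 dimmer miRNAs and of miR-32-3p, so its place among these 4 was not resolved.

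The difference between the groups was then placed on a common scale. Arrays were brought to a common 75th percentile, taken over the 11 miRNAs that were well above background on all 4 arrays, which multiplied M0_sham intensities by 2.04 and 1.52 and M1_OA intensities by 0.468 and 0.687. Values under the lowest scaled intensity of a detected miRNA (7.90) were raised to it before log2 was taken. On this scale miR-22-3p was 5.36 and 5.34 on M1_OA replicates 1 and 2 and at the floor of 2.98 on both M0_sham arrays. The log2 difference, M1_OA minus M0_sham, was 2.37 ± 0.12 (SE from limma over all 41 miRNAs in the fit). Its SE takes in no M0_sham spread for this miRNA, since both arrays sat at the floor.

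A floor sets how large such a difference can look, so the fold was also bounded from below. For this, each M0_sham array's own lowest detected intensity, called its detection limit below, stood in for miR-22-3p there. That intensity is no strict limit, since some miRNAs brighter than it were not detected on M0_sham replicate 1. Each fold given as at least holds only with this stand-in. The M1_OA mean was then at least 1.61-fold higher after the same scaling, at least 5.00-fold higher without scaling, and at least 6.09-fold higher with arrays scaled to the spike-in control RNAs. These bounds differ because the scaling raised the M0_sham arrays and lowered the M1_OA arrays. The bound is a mean over 2 unlike M0_sham limits. With scaling it was 2.58-fold against M0_sham replicate 1 alone and 1.00-fold against replicate 2 alone, whose scaled log2 limit of 5.35 lies at the M1_OA mean of miR-22-3p (5.35), so the scaled bound over 1 rests on replicate 1. Without scaling it was 9.27-fold against replicate 1 and 2.70-fold against replicate 2.

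Over the whole array, 23 miRNAs were well above background on M0_sham replicate 1 and 13 on replicate 2. On M1_OA replicate 1 there were 42 and on replicate 2 there were 45, and 703 miRNAs passed on none of the 4. The fit took the 41 miRNAs detected on both arrays of a group, of which 22 (53.7%) were called higher in M1_OA and 4 (9.76%) lower by limma at a Benjamini-Hochberg adjusted p under 0.05. Many of the 41 had both M0_sham values at the floor, so no M0_sham spread entered their fits. The spread that limma shares over the 41 takes in these values too. miR-22-3p had the sixth largest difference of the 41, whose median was 0.62. It belongs to the 24 miRNAs detected on each M1_OA array but in no M0_sham sample, of which 19 (79.2%) were called higher. Both counts of higher calls include miR-22-3p, which took part in the fit; among the others they were 21 of 40 and 18 of 23. Members of the group of 24 had to differ to enter it, so neither share supports the call of any of them. Their median log2 difference was 1.71, and miR-22-3p had the fifth largest of the 24. By the lower bound it was the seventh of the 24 both with and without scaling. The median bound was 1.06-fold with scaling, where 14 of 24 exceeded 1, and 3.31-fold without scaling, where 24 of 24 did.

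**Figure D2:**
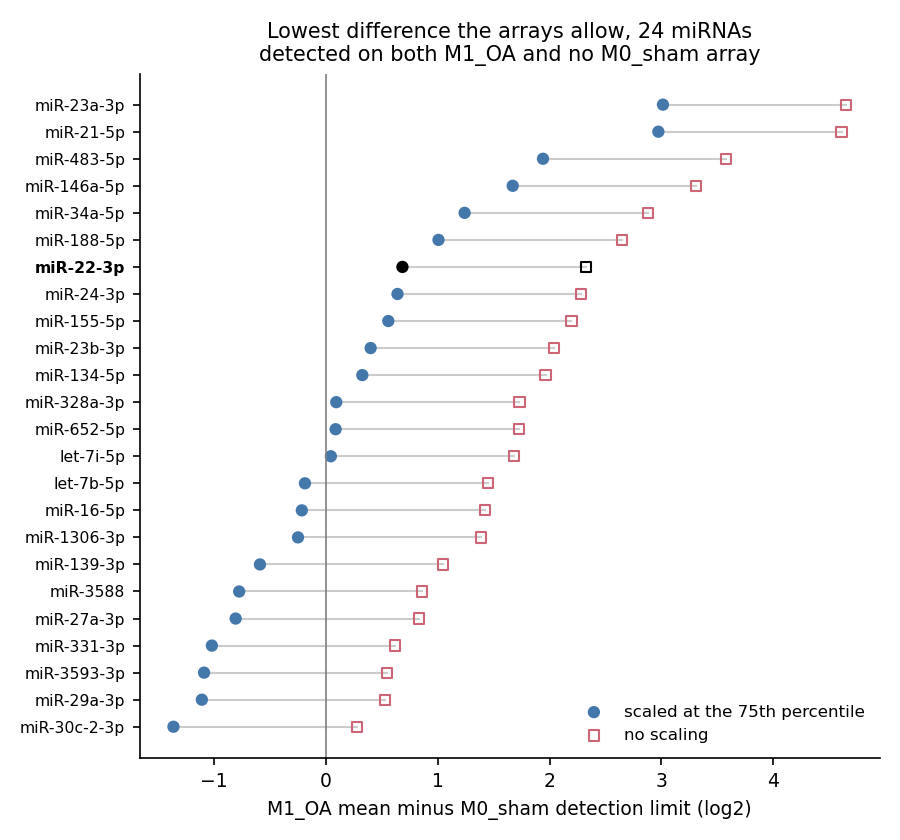
Lower bound of the M1_OA minus M0_sham difference (log2, each M0_sham array at its own detection limit) for the 24 miRNAs well above background on both M1_OA arrays only, with black symbols for miR-22-3p. Filled circles are scaled at the 75th percentile and open squares unscaled; miR-22-3p lies at 0.69 and 2.32, and 10 of the 24 circles lie below 0.

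The profile of miR-22-3p over the 4 arrays was set against those of the other 40 tested miRNAs, each centred on its own mean. The measure was the root mean square difference of the scaled, floored log2 values, whose median over the 40 was 0.98. The nearest was miR-24-3p at 0.07, with intensities of -4.79 and -8.58 on the M0_sham arrays and 80.2 and 61.0 on the M1_OA arrays. Next came miR-155-5p, known from activated macrophages and lymphocytes, at 0.13, with -3.30 and -6.63 in M0_sham and 72.4 and 60.3 in M1_OA. miR-23b-3p followed at 0.14, with -3.16 and -5.84 in M0_sham and 72.5 and 48.4 in M1_OA. Like miR-22-3p, these 3 miRNAs lay below 0 on both M0_sham arrays, and on both M1_OA arrays they were above the lowest detected intensity.

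miR-483-5p, which lies within the gene Igf2, was the fourth at 0.19 and had another shape behind the same distance. It read 12.3 and 18.7 in M0_sham and 226 and 208 in M1_OA, so its M0_sham values lay above the floor and its M1_OA values were brighter. The fifth was miR-134-5p, known from neuronal dendrites, at 0.23, with -7.37 and -9.36 in M0_sham and 59.8 and 52.9 in M1_OA. With 4 arrays and both M0_sham values at the floor, the measure for miR-22-3p rests on the 2 M1_OA values. Without scaling, 3 of these 5 were still among the nearest 5, and with quantile normalization 4 of 5 were.

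**Figure D3:**
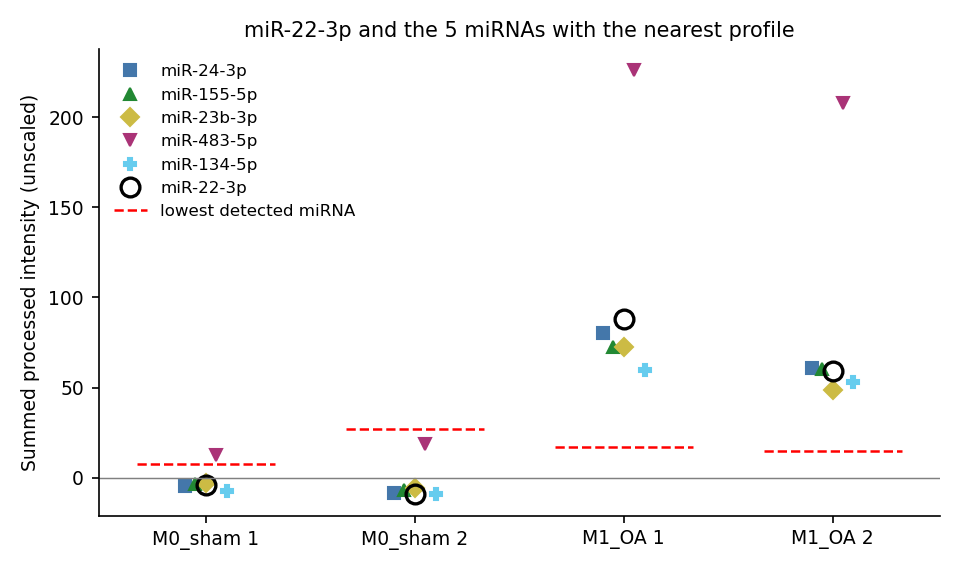
Summed processed intensity (unscaled, linear axis) of miR-22-3p (black rings) and of the 5 miRNAs with the nearest 4-array profile, by array, with dashed lines at the lowest intensity of a detected miRNA on each array. miR-22-3p and 4 of the 5 lie below 0 on both M0_sham arrays and above the dashed line on both M1_OA arrays, and miR-483-5p, at 226 and 208, is the brightest in M1_OA.

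The other arm showed how seldom both strands of a hairpin were seen. Of 281 hairpins with both a 5p and a 3p arm on the array, 30 had 1 arm and 0 had both arms detected on each M1_OA array, and 251 had neither. The detected arm was the 3p arm in 14 and the 5p arm in 16, with Mir22 among the 14. On both M0_sham arrays 6 hairpins had 1 arm (1 with the 3p arm and 5 with the 5p arm), 0 had both, and 275, with Mir22 among them, had neither. The 30 were counted by having 1 arm detected on both M1_OA arrays, so the lack of a second arm in them restates that count. A second arm could still be detected on 1 M1_OA array, and the intensities of the other second arms were not compared with miR-22-5p. Detection was rare over the whole array, with 40 of 758 miRNAs well above background on both M1_OA arrays. Whether 0 second arms is fewer than that share gives was not tested.

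The nearest annotated gene to Mir22 is another miRNA gene, Mir6326, at chr10:60805078-60805188, which ends 142 bases before the hairpin starts. Its mature product on the array, miR-6326, was not detected, at -8.78 and -14.0 in M0_sham and -11.6 and -11.9 in M1_OA. The nearest protein-coding genes are Tlcd2, Wdr81 and Prpf8, a core component of the spliceosome, at distances of 3965, 11659 and 24352 bases.

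4 short motifs known from work on the sorting of miRNAs into vesicles or their retention in cells were searched in the mature strand alone. None of the 4 occurred in miR-22-3p or miR-22-5p. Over the 685 miRNAs with a sequence, AAUGC was found in 1.46%, GGAG in 7.88%, CCCU in 9.49% and GGCU in 10.8%. No match says only that these letters are not in the 2 arms.

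miRNAs with roles in the same settings were read next, from 3 lists of 6 to 17 other miRNAs each, all on the array. Of the 15 other miRNAs listed for monocyte and macrophage differentiation, 6 were well above background on at least 1 array and tested, and of these 5 were called higher in M1_OA and 0 lower by limma, beside 53.7% of the 41 called higher. The 5 were miR-21-5p, miR-146a-5p, miR-34a-5p, miR-24-3p and miR-155-5p, and all 5 were admitted through M1_OA alone, the group of 24 of which 79.2% were called higher, so their calls restate the filter in part. Each of the 5 had both M0_sham values at the common floor, so no M0_sham spread entered its call. The median log2 difference of the 6 was 2.63, against 1.71 over the 24 and 0.62 over the 41. With each array's own detection limit in place of the common floor it was 0.94, with 1 called higher, and with normexp and scaling it was -0.28. miR-21-5p, which lowers the translation inhibitor PDCD4, read 3.10 and 0.12 in M0_sham and 387 and 320 in M1_OA. It was at least 7.85-fold higher in M1_OA by the lower bound. miR-146a-5p, a brake on Toll-like receptor signalling through Traf6 and Irak1, read -1.35 and -4.84 in M0_sham and 191 and 107 in M1_OA (at least 3.18-fold higher). miR-34a-5p, a target of p53, read -1.54 and -5.81 in M0_sham and 122 and 92.1 in M1_OA (at least 2.36-fold higher).

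By the same bound, the M1_OA mean was at least 1.56-fold higher for miR-24-3p and at least 1.47-fold higher for miR-155-5p. In the limma fit with own detection limits, which gives these same bounds, the adjusted p was 0.00026 for miR-21-5p, 0.060 for miR-146a-5p, 0.18 for miR-34a-5p, 0.50 for miR-24-3p and 0.51 for miR-155-5p, so 1 of the 5 was called. In that fit the M0_sham values of all 5 were the limits of the 2 arrays (scaled log2 3.99 and 5.35). The gap between these limits enters each adjusted p, so neither a call nor its absence measures the M0_sham spread of these miRNAs. With normexp and scaling, miR-21-5p was again the 1 called higher, and the log2 differences of miR-34a-5p, miR-24-3p and miR-155-5p turned to -0.18, -0.37 and -0.42. The sixth, miR-223-3p, a myeloid miRNA abundant in granulocytes and monocytes, read 23.1 and 16.6 in M0_sham and 59.7 and 43.7 in M1_OA. It did not pass the test (log2 difference -0.25, limma adjusted p = 0.58), and its intensities were higher in M1_OA before scaling. Its direction turned with the processing. Without scaling miR-223-3p was called higher by limma, with a log2 difference of 1.38, and with normexp background correction and scaling it was called lower, at -0.84. Both calls went with the whole array. Without scaling 32 of the 41 were called higher, with a median of 1.96. With normexp and scaling 25 of the 41 were called lower, with a median of -0.79.

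Of the 17 other cartilage and osteoarthritis miRNAs, 3 were well above background on any array. 2 were tested and called higher, miR-146a-5p and miR-34a-5p, beside 53.7% of the 41 and 79.2% of the 24, to which both belong. Their median log2 difference was 3.14 with the common floor, 1.46 with own detection limits and -0.06 with normexp and scaling, and 0 were called under either of the latter. The third, miR-206-3p, was well above background on M1_OA replicate 2 alone, at 29.5, and read 1.25, 11.5 and 15.7 on M0_sham replicates 1 and 2 and M1_OA replicate 1. Of the 6 other regulators of the histone deacetylases Hdac4 or Hdac6, miR-155-5p was tested and called higher. This stands beside 53.7% of the 41 and 79.2% of the 24, to which miR-155-5p belongs. From the same list miR-206-3p was detected on the 1 array given above. miR-155-5p, too, was not called under own limits or normexp. Without M0_sham replicate 2, miR-146a-5p was not called with the common floor.

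Markers were read for the cells the vesicles were labelled as coming from. Of 6 myeloid markers, 4 were detected on an array (miR-21-5p, miR-146a-5p, miR-155-5p and miR-223-3p), and miR-142-3p and miR-142-5p, which blood cells express, were detected on none. With intensities below 0 counted as 0, the unscaled myeloid intensity summed to 26.3 and 16.8 in M0_sham and 711 and 531 in M1_OA. The largest parts in M1_OA were miR-21-5p at 387 and 320 and miR-146a-5p at 191 and 107. The markers did not all move alike, and after scaling miR-223-3p had a log2 difference of -0.25. The sum was higher in M1_OA, as miR-22-3p was, and its part in that result was not tested. None of the red cell, liver and serum, lymphocyte, stromal, epithelial, endothelial or neuronal markers was detected on any array (0 in each list), and of 3 muscle markers miR-206-3p was.

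The 4 arrays lay on 1 slide and were scanned in 2 sessions, each of which held 1 group. Group and scan session therefore cannot be told apart. Nothing in the labels states whether the replicates are separate animals or separate cultures, and their spread may be technical. An exact permutation test of 2 arrays against 2 cannot give a two-sided p below 0.33. No spot was saturated (0 on any array), no miRNA had equal intensities on both arrays of a group (0 of 758). The precision is limited by having 4 arrays.

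The authors' deposited table of log2 values gave the same order of groups for miR-22-3p and another size. It lists miR-22-3p at -1.93 and -1.78 for M0_sham replicates 1 and 2 and at 2.34 and 2.10 for M1_OA replicates 1 and 2, a log2 difference of 4.07. It lists miR-22-5p at its lowest value, -3.32, on all 4 arrays. The M0_sham values of miR-22-3p in the authors' deposited table lie above that lowest value, although the scanner software called the miRNA not detected on both arrays and gave it its minimum total of 0.1 there.

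Such entries were not rare in the authors' deposited table. It holds 25 miRNAs on M0_sham replicate 1 and 41 on replicate 2 that lie above its lowest value but were not detected by the software. On M1_OA replicate 1 there were 0 and on replicate 2 there were 8. Of the 67, 67, 67 and 68 entries above the lowest value in the 4 columns, 59 values recur in all 4 columns. How the M0_sham values of miR-22-3p were made is not given in the sources used here.

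The scanner software's own total for miR-22-3p was 46.7 on M1_OA replicate 1 and 114.9 on M1_OA replicate 2, the reverse of the order of the spots. Adding the software's totals of the 2 probes gave 46.7 on replicate 1, the same value, and 31.4 on replicate 2. The mean intensity of the 19-base probe, 79.0 and 56.1, has the order of the added totals. The cause of the larger total on replicate 2 was not tested, and the per-miRNA totals were not used for any value above.

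The difference of miR-22-3p was recomputed under 17 other settings of background correction, scaling, floor, probe summary and arrays. It was above 0 under 16 of them, from 0.67 to 4.07 on the log2 scale, and below 0 under 1. This count is no measure of robustness. Where both M0_sham values lay at a common floor, a miRNA detected on both M1_OA arrays could not come out lower there. The mean of probes and the replicate block returned the same 2.37. The exception was normexp background correction followed by scaling, at -0.36, under which the median over the 41 tested miRNAs moved from 0.62 to -0.79. The same correction without scaling gave 0.67, with a median of 0.36. Detection was recomputed with other shares of flagged spots: miR-22-3p was well above background on 2 arrays and miR-22-5p on 0, whether any spot or every spot of a probe had to be flagged.

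**Figure D4:**
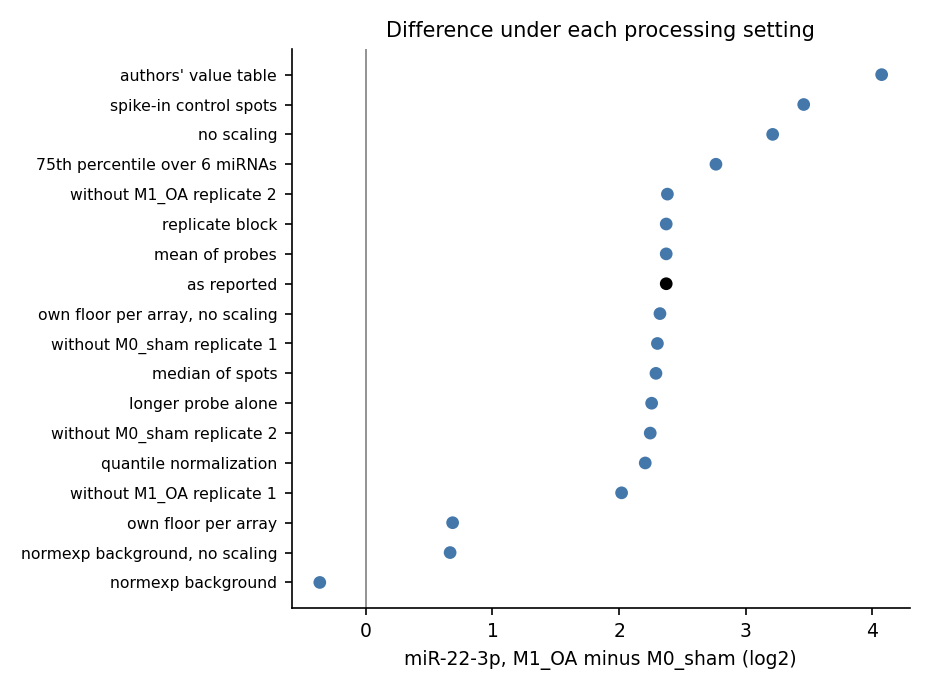
Log2 difference of miR-22-3p, M1_OA minus M0_sham, under each processing setting, in order of size, with the reported value of 2.37 in black. Most settings give values between 2.02 and 2.76, the deposited table gives 4.07, and normexp with scaling is the 1 setting below 0, at -0.36.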

How the data were processed

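Spots were read by the authors with Feature Extraction 10.7.1.1 (Agilent), per the submitters' processing notes, and the deposited values used here are intensities of single spots. Background subtraction with no scaling between arrays had been applied to the processed intensity, per the file headers, and raw mean and local background intensities stand beside it. The deposited files also carry flags of 0 or 1 (well above background, saturated, outlier). The authors' deposited series table holds log2 values with a floor at -3.32, and its normalization is not given in the sources used here. The labels name a labelling kit for cRNA, and it is not clear that it was the one used for miRNA.

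Unmarked spots were averaged per probe, and probes were summed per miRNA (758 miRNAs, 1806 probes, 12128 spots). Arrays were scaled to the 75th percentile over 11 miRNAs, floored at 7.90 and put on a log2 scale. The 41 miRNAs detected on both arrays of a group were fitted with limma 3.58.1 (lmFit, eBayes, two-sided, Benjamini-Hochberg over the 41) in R 4.3.3, and the fit was tested on simulated data. The hairpin was folded with RNAfold 2.7.2. Tables and plots used pandas 2.3.3 and matplotlib 3.10.9 in Python 3.11.15. The members, the lists of related miRNAs and the markers were chosen with earlier results of these data known. Named were both arms, the 5 nearest profiles, the 3 miRNAs next above and next below in brightness, and every tested member of 3 lists. A further list is not reported here. miR-206-3p and the markers miR-142-3p and miR-142-5p fall outside this rule and were named after their values were seen. Alternatives covered background correction, scaling, floor, filter, spot and probe summary, the authors' deposited table, the replicate numbers and each array left out.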

Additional observations from a re-analysis of the deposited data

How the results depend on the processing

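The log2 difference of miR-22-3p, 2.37 as reported, was 3.21 without scaling, 2.21 with quantile normalization, 3.46 scaled to spike-in controls, 2.76 scaled over the 6 of 11 miRNAs whose probes lack CTCC, 2.29 with the median of spots and 4.07 in the authors' deposited table. With each array's own floor it was 0.69, and -0.36 with normexp. Chosen after seeing the data, normexp without scaling gave 0.67, own floors without scaling 2.32 and the 19-base probe alone 2.26. Leaving out 1 array gave 2.02 to 2.38. Under normexp the ranks on the M1_OA arrays were 145 and 152, since the offset of 50 enters once per probe and miRNAs with more probes gain more.

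The 22 higher and 4 lower calls became 4 and 25 with normexp, 4 and 2 with own floors and 1 and 2 over miRNAs detected on all 4 arrays. Lower calls were 0 without scaling, with spike-in controls, without CTCC and with normexp unscaled, and 8 over miRNAs detected on any array. Higher calls under these settings were 32, 33, 21, 31 and 20. Leaving out 1 array gave 13 to 21 higher and 0 to 9 lower calls, with 13 and 9 without M0_sham replicate 2 and 0 lower without M1_OA replicate 1. With the replicate block the difference was 2.37 and the calls were 19 higher and 7 lower. Same-numbered arrays deviated together with r = 0.31 across the 41 miRNAs, and no label pairs them. Scaling to the 75th percentile of all 758 miRNAs was not run, as that percentile was below 0 on all 4 arrays. No alternative difference was computed for miR-22-5p, which was detected in no group. M0_sham signals under 7.78 and 26.7 were not resolved.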
